A study of Mus musculus with 12 samples.

Results

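The gelsolin family members described here are 7 genes whose proteins are built from gelsolin-like domains and act on actin filaments. Vil1, which encodes villin and had a mean of 0.262 FPKM, was counted in another actin list and not among the 7. The members Gsn, Scin, Capg, Svil, Flii, Avil and Vill were taken by symbol from the deposited expression table, and all 7 were among its 23354 symbols. Of the 7, 5 had a mean of 0.5 FPKM or more over the libraries and could be tested among the 14075 symbols above that level, and Scin and Avil did not. Their transcript levels were compared in mouse cortex at postnatal day 16, in 4 groups of 3 C57BL/6 mice. Dnmt1 CKO mice (Olig1cre/+;Dnmt1flox/flox) were set against Dnmt1 controls (Olig1+/+;Dnmt1flox/flox), and Dnmt3a CKO mice (Olig1cre/+;Dnmt3aflox/flox) against Dnmt3a controls (Olig1+/+;Dnmt3aflox/flox), the controls being littermates. CKO stands for conditional knockout. All 12 mice carried both floxed alleles of their line, and the CKO mice differed from the controls in carrying cre recombinase at 1 Olig1 allele. Olig1 is a transcription factor of the oligodendrocyte lineage, so the deletion was directed to that lineage, while RNA was taken from whole cortex with all of its cell types. The cre allele also replaces a copy of Olig1. Within each line, cre and the deletion cannot be told apart, while the CKO mice of both lines carry the same cre allele. The question put to the mice was whether loss of either DNA methyltransferase in oligodendrocytes changes genes of oligodendrocyte differentiation and myelination.

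Actin filaments grow at their barbed ends and are shortened by proteins that cut (sever) them, cap their ends or remove subunits. Gelsolin, the product of Gsn, severs filaments when calcium is bound, stays on the new barbed end as a cap and is released by the membrane lipid PIP2. In oligodendrocytes, the cells that make myelin in the brain, actin filaments build up as processes grow out and are taken apart as the myelin sheath wraps the axon, and gelsolin is among the proteins known for that disassembly. Dnmt1 copies the methyl marks of CpG dinucleotides (a C followed by a G) to the new DNA strand at cell division, and Dnmt3a places such marks afresh.

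Gsn lies on the plus strand of chromosome 2, between bases 35256380 and 35307892 of GRCm38, and GENCODE lists 7 transcripts for it. RefSeq gives 3 start sites for Gsn, and the 3 windows of 250 bases before to 50 bases after each start are shown because Gsn is the member that changed and CpG dinucleotides are what both enzymes act on. They are printed 5′ to 3′ on the plus strand of GRCm38.p6, with each CG in capitals. The letters show where methylation could lie, and methylation was not measured in these libraries.
Gsn chr2:35256109-35256408: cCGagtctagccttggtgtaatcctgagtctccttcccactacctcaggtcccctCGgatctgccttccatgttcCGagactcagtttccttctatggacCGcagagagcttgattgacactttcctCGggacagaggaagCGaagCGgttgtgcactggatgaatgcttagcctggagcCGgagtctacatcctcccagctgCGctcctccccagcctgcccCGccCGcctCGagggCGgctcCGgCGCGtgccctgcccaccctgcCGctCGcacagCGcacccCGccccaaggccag
Gsn chr2:35266494-35266793: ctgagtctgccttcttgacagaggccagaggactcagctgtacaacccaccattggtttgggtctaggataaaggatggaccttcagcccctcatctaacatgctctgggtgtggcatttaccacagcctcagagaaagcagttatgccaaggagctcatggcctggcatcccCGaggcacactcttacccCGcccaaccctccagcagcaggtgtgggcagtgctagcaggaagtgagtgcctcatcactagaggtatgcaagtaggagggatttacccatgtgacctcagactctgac
Gsn chr2:35282130-35282429: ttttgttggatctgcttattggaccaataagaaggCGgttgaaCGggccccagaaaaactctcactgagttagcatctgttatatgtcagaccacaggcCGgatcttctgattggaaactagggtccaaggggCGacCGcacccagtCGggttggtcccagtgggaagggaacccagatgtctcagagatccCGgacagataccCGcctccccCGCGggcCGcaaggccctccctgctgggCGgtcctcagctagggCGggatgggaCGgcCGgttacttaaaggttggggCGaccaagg

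The 3 windows differed widely in CpG content. The first held 20 CG, the second 2 and the third 16, against a median of 7 over the 32851 RefSeq windows of this length. Of all windows, 26.5% held at least as many as the first, 85.9% at least as many as the second and 33.0% at least as many as the third. The window of Flii held 26 CG, that of Scin 16, those of Capg and Vill 7 each and that of Avil 2. The deposited level is 1 value per gene, so it does not say which of the Gsn start sites was used.

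Levels were deposited as FPKM, fragments per kilobase of transcript and per unit of sequencing depth, which can be compared between genes. Read from the smallest steps between low values, the depths of the libraries ran from 0.859 to 1 relative to the deepest. On those steps Gsn rested on about 1375 to 4955 fragments a library, Flii on 1201 to 1472, Svil on 400 to 548, Vill on 103 to 182 and Capg on 51.3 to 95.1, while Avil rested on 5.92 to 31.7 and Scin on 3.98 to 13.9. The 8 neuron markers, Snap25 and Syt1 among them, were all detected and summed to between 1860 and 2023 FPKM in every library. The targeted genes were read from whole cortex and marked the groups only in part. Dnmt1 lay between 9.78 and 10.6 FPKM in the Dnmt1 controls and ranged from 7.26 to 9.11 in Dnmt1 CKO mice (limma log2 fold change −0.27, adjusted p = 0.29). Dnmt3a lay between 13.6 and 15.4 FPKM in the Dnmt3a CKO, and at 31.1 and 28.7 in 2 Dnmt3a controls but at 16.9 in the library labelled Dnmt3a control replicate 2 (limma log2 fold change −0.78, adjusted p = 0.66). Olig1, the cre locus, was lower by 1.19 on the log2 scale in the Dnmt1 CKO (limma adjusted p = 0.0043), and its value in the Dnmt3a CKO was −0.49.

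Over the 6 control libraries the family spanned a wide range of levels. Gsn stood highest at 40.1 ± 5.42 FPKM (SD, n = 6), 4.68-fold above Flii at 8.57 ± 0.400. Svil followed at 1.55 ± 0.111 FPKM, Capg at 1.28 ± 0.224, Vill at 0.967 ± 0.180, Avil at 0.107 ± 0.0279 and Scin at 0.0752 ± 0.0312. The control values of Svil overlapped those of Capg, and those of Avil overlapped those of Scin. Neither gene of these pairs was higher in every control, so the order within them is not set. The control values of Capg and Vill overlapped too, although Capg was above Vill in each of the 6 controls. Gsn and Flii stood clear of each other and of the rest in every control. Gsn made up between 72.3% and 78.7% of the summed FPKM of the 7 members in the 6 controls. Their summed transcript level in cortex was thus mostly that of a single gene. In GRCm38 the other members lie on other chromosomes, Scin at chr12:40059769-40134228 and Flii at chr11:60714123-60727263 on the minus strand, and Capg at chr6:72544391-72562983, Svil at chr18:4920540-5119299, Avil at chr10:127000709-127020994 and Vill at chr9:119052778-119071525 on the plus strand.

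**Figure D1:**
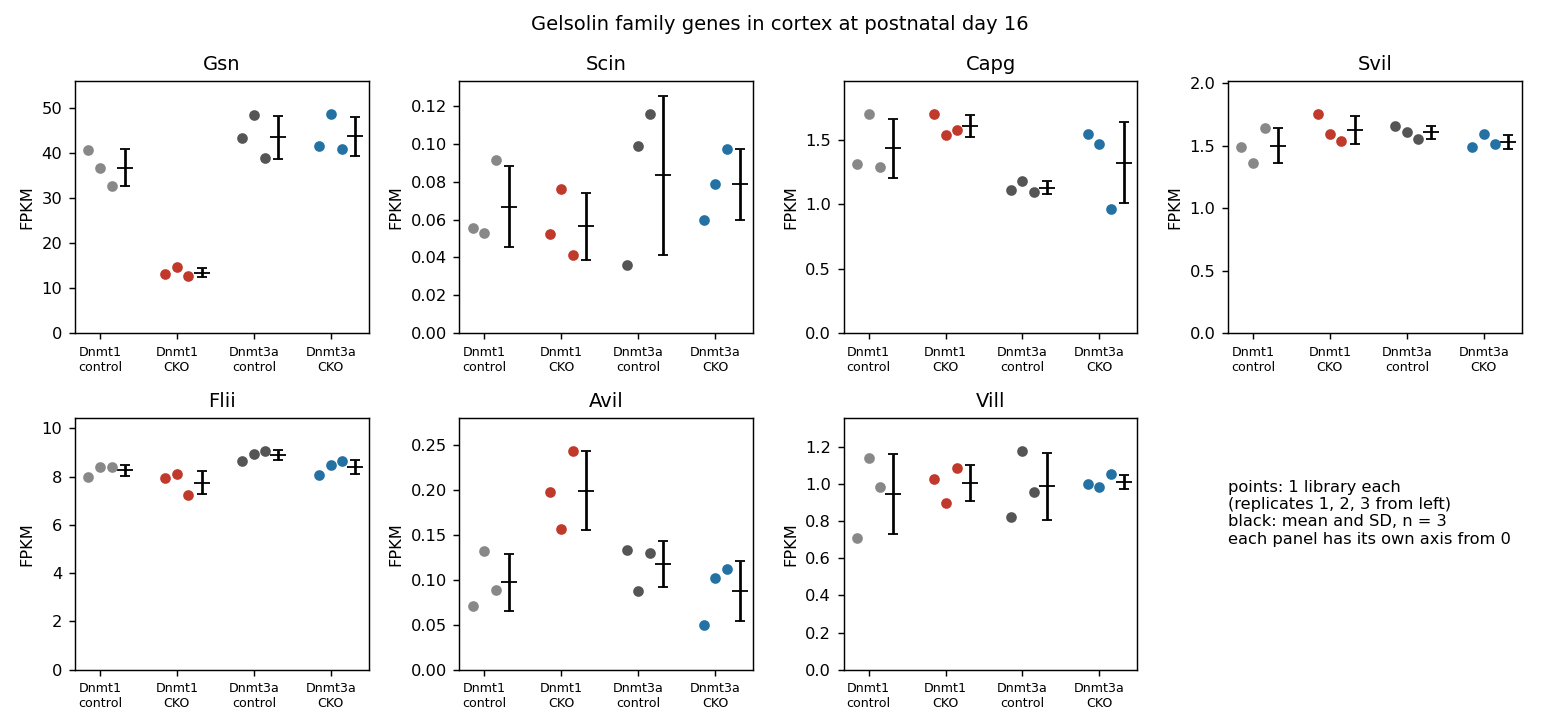
FPKM of the 7 gelsolin family members in the 12 libraries, with a panel and a linear axis from 0 for each gene, the 4 groups along the horizontal axis, 1 point for each mouse and, in black, the group mean and SD (n = 3). The 3 Dnmt1 CKO points of Gsn lie between 12.6 and 14.6 FPKM, below all 9 other libraries, and of the other members in the Dnmt1 line only Avil has CKO points that all lie above the controls.

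Gsn was at 40.8, 36.8 and 32.6 FPKM in the 3 Dnmt1 controls while the 3 Dnmt1 CKO mice had 13.1, 14.6 and 12.6 FPKM. Every CKO library lay far below every control, and the spread within each group was small beside the gap. Of all rows tested, 20.8% had CKO and control values that did not overlap in this line. The group means were 36.7 ± 4.08 and 13.4 ± 1.03 FPKM (SD, n = 3). Gsn thus fell, with a log2 fold change of −1.44 (SE 0.095, 95% interval −1.67 to −1.21), or 2.72-fold lower. Fold changes here are on the scale of log2(FPKM + 0.1), and the test was limma with Benjamini-Hochberg adjustment over the 14115 rows whose mean reached 0.5 FPKM, a gene being called at a false discovery rate of 10%. The adjusted p of Gsn was 0.0024. It was the only one of the 5 members tested that was called, against a background of 3.15% of the 14075 symbols tested that were called in either direction and 2.3% that were called lower. Only 78 rows had a lower log2 fold change than Gsn. In whole cortex, fewer oligodendrocytes and less Gsn RNA in each of them cannot be told apart.

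The Dnmt3a controls had 43.3, 48.3 and 38.9 FPKM of Gsn, and the Dnmt3a CKO mice 41.6, 48.7 and 41.0 FPKM. The groups overlapped throughout, and each spanned the mean of the other. The log2 fold change was 0.01 (SE 0.10, 95% interval −0.24 to 0.26, limma adjusted p = 0.99), and it was 0.09 without Dnmt3a control replicate 2, the library with the low Dnmt3a level. None of the 5 members tested was called in this line, where 0.0142% of all symbols were (2 at a false discovery rate of 10%, and 1036 at an unadjusted p under 0.05). No member had an unadjusted p under 0.05 either.

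The difference between the effects in the lines was tested directly, as an interaction term over all 12 libraries. For Gsn it was −1.45 (SE 0.14, 95% interval −1.77 to −1.13, limma adjusted p = 0.00031). Gsn was again the only member called, against backgrounds of 2.12% in either direction and 1.83% on the lower side. The same difference was −0.02 for Capg, 0.18 for Svil, −0.01 for Flii and 0.05 for Vill, with limma adjusted p between 0.67 and 0.98. Beside Gsn, all 16 markers of mature oligodendrocytes, described further on, were called lower in the same test.

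**Figure D2:**
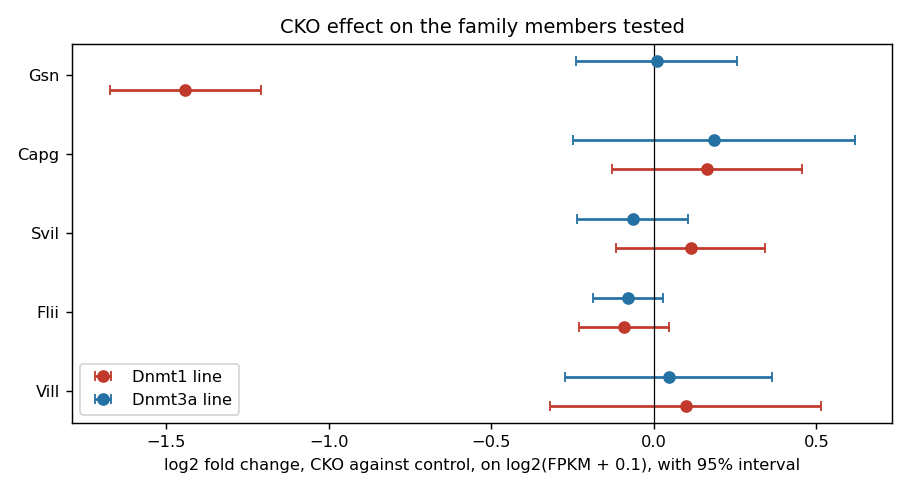
Log2 fold change of the 5 members tested, CKO over control on the log2(FPKM + 0.1) scale, with 95% intervals from limma, for the Dnmt1 line and the Dnmt3a line. Gsn in the Dnmt1 line stands at −1.44, and the intervals of the other 4 members, and of Gsn in the Dnmt3a line, all hold 0.

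Of the other 6 members, Scin encodes the closest relative of gelsolin in domain make-up, also a calcium-dependent severing protein. It was near the limit of what these libraries could show. Its level was 0.0557, 0.0531 and 0.0915 FPKM in the Dnmt1 controls against 0.0522, 0.0760 and 0.0411 FPKM in the Dnmt1 CKO. The groups overlapped (exact two-sided permutation test, p = 0.5, where 0.1 is the smallest p that 3 against 3 can give). Its range was 0.0360 to 0.116 FPKM over the Dnmt3a controls and 0.0599 to 0.0973 over the Dnmt3a CKO (exact permutation p = 0.9). Scin had a mean under 0.5 FPKM and was not in the fit. A limma fit with no minimum, added after the data were seen, gave −0.09 on the log2 scale for the Dnmt1 line (adjusted p = 0.82), and the few fragments limit what change could be seen. The 0.1 FPKM added before the log is above every Scin value in that line and draws the fold change towards 0.

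Capg caps barbed ends but does not sever, and is well known from macrophages. It was at 1.31, 1.70 and 1.29 FPKM in the Dnmt1 controls against 1.70, 1.54 and 1.58 FPKM in the Dnmt1 CKO. The Dnmt3a controls had 1.11, 1.19 and 1.10 FPKM, and the Dnmt3a CKO had 1.54, 1.47 and 0.963. In both lines the ranges overlapped. The log2 fold change was 0.16 in the Dnmt1 line (SE 0.12, 95% interval −0.13 to 0.46, limma adjusted p = 0.59) and 0.19 in the Dnmt3a line (SE 0.18, 95% interval −0.25 to 0.62, limma adjusted p = 0.81). These values moved with single libraries, to 0.29 without Dnmt1 control replicate 2, and to 0.07, 0.10 and 0.38 without Dnmt3a CKO replicates 1, 2 and 3. Beside it, 4 of the 12 microglia markers, chosen by name after their values were seen, were called higher in the Dnmt1 CKO. These were the complement genes C1qa (0.34), C1qb (0.42) and C1qc (0.27) and the surface receptor Trem2 (0.30). Of all symbols tested, 3.15% were called in either direction. The 12 markers did not all rise, as 3 had log2 fold changes below 0, the lowest at −0.18, and the median of the list was 0.11. The summed level of the 12 markers was 181 to 191 FPKM in the Dnmt1 controls against 201 to 216 in the Dnmt1 CKO. None of the 4 border macrophage markers tested was called. Of them 1 had an unadjusted p under 0.05, as did 15% of all symbols tested. The part of microglia and border macrophages in the level of Capg was not tested.

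Flii combines gelsolin-like domains with leucine-rich repeats and is also known as a coactivator in the nucleus. It was the second most abundant member, at 7.98, 8.41 and 8.38 FPKM in the Dnmt1 controls against 7.94, 8.09 and 7.22 in the Dnmt1 CKO. The ranges overlapped, and the log2 fold change was −0.09 (SE 0.056, 95% interval −0.23 to 0.05, limma adjusted p = 0.52). The Dnmt3a controls had 8.66, 8.92 and 9.08 FPKM and the Dnmt3a CKO 8.08, 8.49 and 8.66 FPKM. Those groups did not overlap, although the lowest control and the highest CKO value agreed to 3 digits, and 12.8% of all rows tested had groups that did not overlap in that line. The log2 fold change was −0.08 (SE 0.044, 95% interval −0.19 to 0.03, limma adjusted p = 0.72). Flii shares 64 exon bases, 1.27% of its own, with Llgl1 on the opposite strand, and the library kit does not mark strand. Llgl1 was called lower in the Dnmt1 CKO, with a log2 fold change of −0.25 (limma adjusted p = 0.08), and its part in the level of Flii was not tested.

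Svil encodes supervillin, a large membrane-bound member that holds actin and myosin II at the cell cortex. Its level was 1.49, 1.37 and 1.64 FPKM in the Dnmt1 controls against 1.76, 1.59 and 1.54 FPKM in the Dnmt1 CKO, and 1.66, 1.61 and 1.55 against 1.49, 1.60 and 1.51 in the Dnmt3a line. The groups overlapped in both lines. The log2 fold change was 0.11 in the Dnmt1 line (SE 0.093, 95% interval −0.11 to 0.34, limma adjusted p = 0.63) and −0.07 in the Dnmt3a line (SE 0.070, 95% interval −0.24 to 0.11, limma adjusted p = 0.84).

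Vill and Avil encode the villin-like proteins of the set, which add a headpiece domain to the gelsolin-like ones. Vill was at 0.712, 1.14 and 0.985 FPKM in the Dnmt1 controls against 1.03, 0.900 and 1.09 FPKM in the Dnmt1 CKO, and at 0.825, 1.18 and 0.958 against 0.999, 0.985 and 1.06 in the Dnmt3a line. In both lines the control range held all 3 CKO values. The log2 fold change was 0.10 (SE 0.17, 95% interval −0.32 to 0.51, limma adjusted p = 0.86) in the Dnmt1 line and 0.05 (SE 0.13, 95% interval −0.27 to 0.36, limma adjusted p = 0.95) in the Dnmt3a line. The interval in the Dnmt1 line was the widest of the 5 members tested there.

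Avil, whose product advillin is best known from sensory neurons, was at 0.0704, 0.132 and 0.0888 FPKM in the Dnmt1 controls against 0.198, 0.156 and 0.243 FPKM in the Dnmt1 CKO. All 3 CKO libraries lay above all 3 controls. The mean was 0.0970 ± 0.0316 FPKM in the controls and 0.199 ± 0.0437 in the CKO (SD, n = 3), a ratio of 2.05, with the smallest exact permutation p that 3 against 3 can give, 0.1. Of the 3150 rows with a mean between 0.05 and 0.5 FPKM, 17% had groups that did not overlap in this line. Avil was under the minimum mean of the fit. In limma fits that admitted it, which were added after the data were seen, the log2 fold change was 0.60 with an adjusted p of 0.19 or 0.22, and the gene was not called. The 0.1 FPKM added before the log is close to the control mean, so 0.60 is a smaller change than the ratio of 2.05. The Dnmt3a controls had 0.133, 0.0877 and 0.130 FPKM and the Dnmt3a CKO 0.0493, 0.102 and 0.112 FPKM, and these groups overlapped. Avil shares 165 exon bases, 4.86% of its own, with Tsfm on the opposite strand. Tsfm was at a mean of 8.40 FPKM and its log2 fold change in the Dnmt1 line was 0.04 (limma adjusted p = 0.81), and its part in the level of Avil was not tested.

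Outside the fall of Gsn, the family's summed level moved little. The other 6 members together made 12.3 ± 0.614 FPKM in the Dnmt1 controls against 12.3 ± 0.493 FPKM in the Dnmt1 CKO, and between 11.6 and 13.1 FPKM in all 12 libraries. Most of that sum was Flii, at means of 8.26 and 7.75 FPKM in these groups of the Dnmt1 line, so it says little of the lower members. The share of Gsn in the family sum was 72.3% to 77.8% in the Dnmt1 controls against 50.9% to 54.1% in the Dnmt1 CKO. The median over all rows tested was −0.02 on the log2 scale for the Dnmt1 line and 0.01 for the Dnmt3a line.

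The fall of Gsn was set against the genes that mark the cells known to make it. All 16 markers of mature oligodendrocytes were called lower in the Dnmt1 CKO, with a median log2 fold change of −1.83 and a range of −2.45 to −0.99. Of all symbols tested, 2.3% were called lower, and the markers were chosen with earlier results of these data known. Among the most abundant were the myelin protein gene Mbp (−1.67), Cnp (−1.38), whose product lies in the cytoplasm of the sheath, and the tight junction gene Cldn11 (−1.67). Summed over the 16, the level was 2032 to 2352 FPKM in the Dnmt1 controls against 604 to 702 in the Dnmt1 CKO. Of the 16, 13 fell by more than Gsn and 3 by less, and the 95% intervals of 11 lay wholly below the value of Gsn.

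Taken per library, Gsn relative to the mean of the 16 markers on the log2(FPKM + 0.1) scale was 0.13 ± 0.11 in the Dnmt1 controls against 0.49 ± 0.11 in the Dnmt1 CKO (SD, n = 3). The groups did not overlap, and Gsn was thus higher by 0.36 relative to the myelin markers in the CKO, with the smallest exact permutation p possible, 0.1. The difference was 0.22 with a pseudocount of 1 FPKM and 0.25 with the median of the list in place of its mean. For the Dnmt3a line the corresponding difference was −0.05 (exact permutation p = 0.4), and the groups overlapped.

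The lineage transcription factors fell by less than Gsn. Sox10 (−0.81), which drives myelin genes, Olig2 (−0.54) and Nkx2-2 (−0.74), a factor of the step from progenitor to oligodendrocyte, were all called lower in the Dnmt1 CKO, as was Olig1. Relative to the mean of Olig2, Sox10 and Nkx2-2, without the cre locus, Gsn was at 2.46 ± 0.080 (SD, n = 3, log2 scale) in the Dnmt1 control mice, and 1.72 ± 0.081 was its value in the CKO mice of that line. That is a difference of −0.74 with no overlap (exact permutation p = 0.1). It was −0.08 in the Dnmt3a line (exact permutation p = 0.6). Of 8 progenitor markers 2 were called lower, Gpr17 (−0.56) and Pdgfra (−0.30), and the median of the list was −0.16. The share called lower over all symbols tested was 2.3%. The fall of Gsn thus lay between the medians of the mature list and the lineage list (−0.78, with Olig1 counted).

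**Figure D3:**
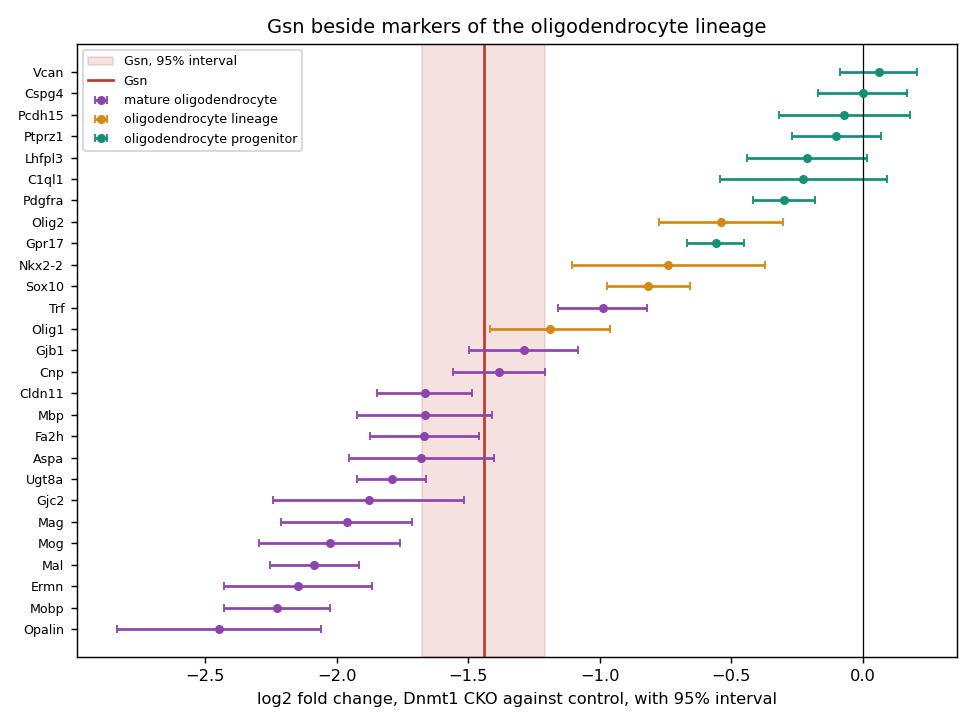
Log2 fold change, Dnmt1 CKO over Dnmt1 control, of markers of the mature oligodendrocyte, lineage and progenitor lists (points, horizontal axis) with 95% intervals from limma, coloured by list, and of Gsn as a vertical line with its interval shaded. Gsn stands at −1.44, with the mature markers to its left except for Cnp, Gjb1 and Trf, and these 3, the lineage factors and the progenitor markers to its right.

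The genes whose pattern was most like that of Gsn were found by the root mean square difference of centred log2(FPKM + 0.1) values over the 12 libraries, among the rows tested. The closest 8 were Cnp (0.0528), Tmem88b (0.0704), Pdlim2 (0.0843), Lpar1 (0.107), Tspan2 (0.113), Slc45a3 (0.116), Adamts4 (0.118) and Prr18 (0.126), against a median of 0.717 over all rows. The spread of Gsn around its own mean was 0.713, which is what a gene with a flat pattern would score, so that median mostly restates the fall of Gsn. Lpar1 is a receptor for lysophosphatidic acid, Tspan2 a tetraspanin of myelin and Adamts4 a secreted protease, and Pdlim2 carries PDZ and LIM domains of a kind that bind the actin cytoskeleton. Their log2 fold changes in the Dnmt1 line, fixed by that choice to be near that of Gsn, ran from −1.27 to −1.69. The values share the same libraries, and with the Dnmt3a line alone 0 of these 8 were among the closest 8. Beside Cnp, at a mean of 147 FPKM, the level of Gsn was 21.6% to 24.6% of Cnp in all 12 libraries, a ratio chosen after the values were seen.

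**Figure D4:**
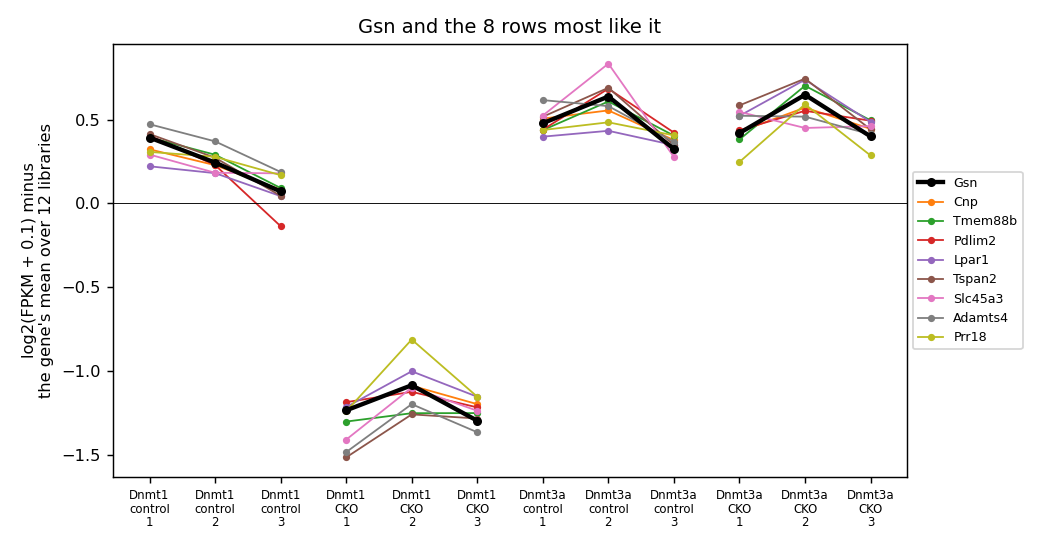
Centred log2(FPKM + 0.1) of Gsn and of the 8 genes with the smallest root mean square difference from it, in the 12 libraries. All 9 lie lowest in the 3 Dnmt1 CKO libraries, and Cnp, at a difference of 0.0528, lies closest to Gsn.

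The rest of the actin machinery was described by 9 lists of 79 genes, of which 75 were tested. In the Dnmt1 line 2 were called lower and 0 higher, or 2.67% against the 3.15% of all symbols, and 16 of the 75 (21.3%) had groups that did not overlap, against 20.8%. The log2 fold changes ran from −0.69 to 0.25 with a median of −0.00. The shares were thus near the background, and Gsn, at −1.44, lay outside the whole range of these genes.

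By role, none of 11 severing and depolymerising genes such as Cfl1 and Wdr1 was called in the Dnmt1 line, with 2 at an unadjusted p under 0.05 and a range of −0.11 to 0.25. None of 6 monomer-binding genes was called (range −0.12 to 0.05), and none of 10 capping genes (−0.15 to 0.07). None was called among 11 nucleation promoting factors (−0.06 to 0.09), 10 formins (−0.15 to 0.03), 8 regulators of cofilin (−0.11 to 0.08) and 6 kinases that make PIP2 (−0.11 to 0.03). At an unadjusted p under 0.05 there were 0 of the monomer-binding genes, 3 of the capping genes, 0 of the nucleation promoting factors, 2 of the formins, 0 of the cofilin regulators and 1 of the PIP2 kinases. Over the 9 lists 10 of the 75 (13.3%) were below that p, against 15% of all symbols tested (2112).

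**Figure D5:**
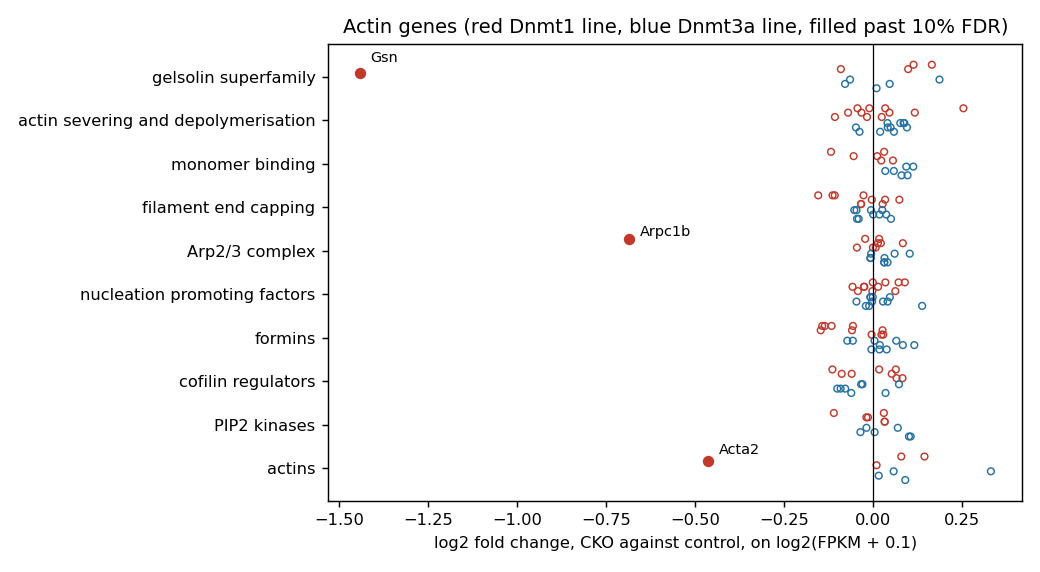
Log2 fold change, CKO over control, of each gene tested in the gelsolin family and the 9 other actin lists, with 1 point for each gene, red for the Dnmt1 line and blue for the Dnmt3a line, filled where past a false discovery rate of 10%. The filled points are Gsn at −1.44, Arpc1b at −0.69 and Acta2 at −0.47, all in the Dnmt1 line, and the open points lie between −0.15 and 0.33.

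The 2 called were Arpc1b and Acta2. Arpc1b, a subunit of the Arp2/3 complex, which starts branched filaments, was at 17.7, 16.5 and 14.9 FPKM in the Dnmt1 controls against 9.69, 11.0 and 9.74 FPKM in the Dnmt1 CKO. The groups were well apart, with a log2 fold change of −0.69 (SE 0.080, 95% interval −0.88 to −0.49, limma adjusted p = 0.015), or 1.61-fold lower. In the Dnmt1 line 20.8% of all rows tested had groups that did not overlap. The Dnmt3a controls had 17.4, 17.4 and 16.5 FPKM and the Dnmt3a CKO 17.8, 19.7 and 17.6 FPKM, so that all 3 CKO libraries lay above the controls, and 12.8% of all rows in that line had groups that did not overlap. The log2 fold change there was 0.10 (95% interval −0.03 to 0.23, limma adjusted p = 0.70), which adds to the difference between the lines. The difference between the lines was −0.79 (SE 0.099, limma adjusted p = 0.0017), and Arpc1b was the 1 actin list gene called in that test. The other 8 subunits of the complex had no call in the Dnmt1 line, and Arpc1a, the other form of the same subunit, was at 73.3 ± 4.86 and 71.0 ± 3.93 FPKM in the control and CKO mice of the Dnmt1 line.

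Acta2, the actin of smooth muscle and pericytes, was at 2.57, 2.84 and 3.08 FPKM in the Dnmt1 controls against 1.87, 2.19 and 2.01 FPKM in the Dnmt1 CKO. The groups did not overlap, as for 20.8% of all rows tested in this line. The log2 fold change was −0.47 (SE 0.096, 95% interval −0.70 to −0.23, limma adjusted p = 0.098). The call was lost when any 1 of the 6 libraries was left out, with an adjusted p of 0.12 to 0.29. Acta2 is also a marker of mural cells, the cells around vessels, and Rgs5 of that list was called lower too (−0.36). The 6 mural markers summed to 43.0 to 46.9 FPKM in the Dnmt1 controls against 34.5 to 37.4 in the Dnmt1 CKO, and the part of these cells in the level of Acta2 was not tested.

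None of the 75 was called in the Dnmt3a line. An unadjusted p under 0.05 was found for 4 (5.33%), against 7.36% of all symbols. The groups did not overlap for 10 (13.3%), against 12.8% of all rows. The other cell type markers were compared in the same way in the Dnmt1 line. Of 7 astrocyte markers 1 was called higher, Gfap (0.45), while 4 had log2 fold changes below 0, Aqp4 being the lowest at −0.28 (limma adjusted p = 0.14), and the median of the list was −0.03. None of 8 neuron, 7 endothelium, 8 meningeal fibroblast, 6 choroid plexus and 4 ependyma markers was called. Of all symbols tested, 3.15% were called in either direction. Log2 fold changes were below 0 for 6 of the endothelium and 7 of the meningeal markers (median −0.16 for each list). The same held for 2 neuron, 4 choroid plexus and 2 ependyma markers, and for 58.9% of all rows. The endothelium list summed to 72.4 to 78.7 FPKM in the Dnmt1 controls against 66.8 to 71.0 in the Dnmt1 CKO. Unadjusted p values under 0.05 were found for 3 astrocyte, 0 neuron, 3 endothelium, 1 meningeal, 0 choroid plexus and 0 ependyma markers. The share over all symbols tested in this line was 15%. The choroid plexus list summed to between 3.47 and 421 FPKM over the 12 libraries, and high and low values occurred in CKO and control alike.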

How the data were processed

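Polyadenylated RNA from whole cortex was sequenced from unstranded TruSeq libraries on a HiSeq instrument. Reads had been aligned with TopHat to the mm10 assembly, and the authors deposited FPKM per gene from Cufflinks; tool versions and annotation are not given in the sources used here. The table had 23850 rows, of which 302 were exact duplicates and 23548 were kept. Every column had a sample. FPKM is not a count, so the count test of the study could not be repeated. Relative depth was read from FPKM steps of low genes; 66.1% to 73.1% of low values lay within 0.1 of a whole fragment. Between 120 and 136 rows with a mean above 5 FPKM were listed at 0 in a library, which can be failed estimates. No row of a member was at 0.

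limma 3.58.1 in R 4.3.3 (linear model, empirical Bayes with trend) was fitted to log2(FPKM + 0.1) of the 14115 rows whose mean over the 12 libraries reached 0.5 FPKM, with each line on its own and the interaction over all 12. Genes were called at 10% by Benjamini-Hochberg adjustment over all rows. Exact permutation tests used scipy 1.17.1. Data were simulated for the Dnmt1 comparison over 14079 rows with normal noise. Recovered were 75.4% of 65 changes of 0.5 on the log2 scale, 92.5% of 67 changes of 1 and 98.5% of 68 changes of 2. There were 16 false calls. The changed rows were drawn from those with a mean of at least 1 FPKM, so these shares do not cover lower rows, Vill among them. Gene positions are from GENCODE M21 and promoter windows from RefSeq; 6 of the 7 members had a window. Diaph1, Diaph2 and Diaph3 were matched through older symbols. Named genes were the members, the actin list genes past the threshold, the most abundant markers and the 8 genes most like Gsn. The members and lists were chosen with earlier results of these data known. Replicates were separate mice. 1 of the 16 mature markers is counted in its list but left out of the plot of Gsn and the markers.

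Alternatives covered the pseudocount, the filter, scaling, moderation, threshold, model, replicate block and each library left out. Replicate numbers did not pair the libraries, since the correlations of residuals of same-numbered libraries ran from −0.079 to 0.035.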

Additional observations from a re-analysis of the deposited data

Results flagged for a closer look

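Among the gelsolin family members and the other actin list genes tested, the effect of the knockout differed between the lines for 2 by the interaction test, which called 2.12% of all symbols (299). It also called all 16 mature oligodendrocyte markers and 3 of the 4 lineage factors, each lower in the Dnmt1 line relative to the Dnmt3a line. For Gsn the difference, Dnmt1 line minus Dnmt3a line, was −1.45 on the log2 scale (SE 0.14, limma adjusted p = 0.00031), with all 3 Dnmt1 CKO libraries below their controls and overlapping groups in the Dnmt3a line. For Arpc1b, the subunit of the Arp2/3 complex, it was −0.79 (SE 0.099, limma adjusted p = 0.0017), again with all 3 Dnmt1 CKO libraries below their controls. In the Dnmt1 line 20.8% of all rows tested had groups that did not overlap.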

How the results depend on the processing

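Gsn kept its direction and its call in the Dnmt1 line under every alternative run, with log2 fold changes of −1.45 to −1.38 and limma adjusted p of 1.0e-05 to 0.031, and of −1.52 to −1.36 with adjusted p of 0.006 to 0.021 when a library was left out. The interaction for Gsn ran from −1.53 to −1.37 with a library left out. The number of members called was the same throughout. The value of Gsn in the Dnmt3a line, near 0, changed sign to −0.0011 with median ratio scaling and −0.011 with quantile normalization, and ran from −0.071 to 0.088 with a library left out. Gsn relative to the mature list in the Dnmt1 line was 0.22 with a pseudocount of 1 FPKM and 0.25 with the median over the list, and relative to the lineage list −0.90 with the median. Of the 8 genes most like Gsn, 5 were shared with a pseudocount of 1 FPKM and 0 with the Dnmt3a line alone.

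The 443 genes called in the Dnmt1 line were 262 at 5% and 198 to 340 with a library left out, with 198, 265 and 215 without Dnmt1 CKO replicates 1, 2 and 3 and 205 without Dnmt1 control replicate 2. With the replicate block, in which the numbers do not pair the libraries, 161 were called, Gsn had an adjusted p of 0.031 and Acta2 was no longer called. In the Dnmt3a line the count of 2 was 1 at 5%, with a pseudocount of 1 FPKM, a minimum mean of 1 FPKM, quantile normalization, the replicate block or 1 model of all 12 libraries, and 17 with no filter. It was 2 to 5 with a library left out, with 4 without Dnmt3a control replicate 1 or Dnmt3a CKO replicate 1 and 5 without Dnmt3a control replicate 3. Acta2 also lost its call in the Dnmt1 line with a pseudocount of 0.01 FPKM, no filter, median ratio scaling and quantile normalization. The cause of these changes was not tested.

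Signs near 0 turned as follows. Dnmt3a in the Dnmt1 line was 0.0031 with median ratio scaling and 0.0044 with quantile normalization, and −0.060 to 0.018 with a library left out. In the interaction Capg was 0.011 with median ratio scaling, and Flii was 0.022 with it and 0.015 with quantile normalization. With a library left out the interaction ran from −0.22 to 0.10 for Capg, −0.043 to 0.038 for Flii and −0.12 to 0.19 for Vill. Vill ran from −0.074 to 0.23 in the Dnmt1 line and −0.064 to 0.17 in the Dnmt3a line, and Acta2 from −0.11 to 0.086 in the Dnmt3a line. Without changing sign, and with no call, the Dnmt1 line ran from 0.098 to 0.29 for Capg, 0.051 to 0.18 for Svil and −0.12 to −0.042 for Flii with a library left out, and the Dnmt3a line from 0.069 to 0.38 for Capg, −0.093 to −0.043 for Svil and −0.10 to −0.051 for Flii. The low levels of Scin and Avil limit what can be said of either.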
